A study of Mus musculus with 18 samples.

Results

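The tsRNA-Ala species, the small RNAs derived from the cytosolic alanine tRNAs, were examined in mouse liver. They were chosen by name as the 3 entries of the deposited table that begin with mature-tRNA-Ala-, namely mature-tRNA-Ala-AGC, mature-tRNA-Ala-CGC and mature-tRNA-Ala-TGC, out of 51 cytosolic tRNA entries and 1234 small RNAs in all. They are called tsRNA-Ala-AGC, tsRNA-Ala-CGC and tsRNA-Ala-TGC below, after the anticodon of the parent tRNA. Each entry sums all fragments of that tRNA, so neither the end of the tRNA nor the length of a fragment can be read from it. The libraries came from whole livers of 9 male C57BL/6 mice, 8 weeks old at the start, with no allele or transgene named in the labels. The diets differed in cholesterol, with 0.5% in the high-cholesterol diet (HCD) of 4 mice and 0.02% in the low-cholesterol diet (LCD) of 5 mice. Feeding lasted 4 weeks by the series description, whereas the sample labels give 9 weeks in one field and 8 weeks in another. RNA of 15 to 50 nt from each liver was sequenced by PANDORA-seq, in which RNA ends are repaired with T4PNK and methyl groups are then removed with AlkB, and by traditional-seq, which uses neither enzyme. This gave 4 HCD and 5 LCD libraries by PANDORA-seq and 4 HCD and 5 LCD libraries by traditional-seq.

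tRNA-Ala carries alanine to the ribosome and reads the GCN codons. It is charged by alanyl-tRNA synthetase, which recognizes a G:U pair in the acceptor stem rather than the anticodon. tRNA-Ala with the AGC anticodon is edited at the first anticodon position from adenosine to inosine by ADAT2 and ADAT3, whereas the CGC and TGC forms are not substrates of that reaction. Angiogenin cuts tRNAs in the anticodon loop under stress, and the 5′ fragments of tRNA-Ala and tRNA-Cys, which begin with a run of guanosines, are known for inhibiting translation in human cells together with YBX1. Fragments cut by angiogenin carry a cyclic phosphate at the 3′ end that blocks adapter ligation, and many tRNAs carry 1-methyladenosine in the T loop, which halts reverse transcription and which AlkB can remove.

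RefSeq annotates 33 nuclear alanine tRNA genes on 8 chromosomes of GRCm38.p6, the mm10 assembly to which the reads were assigned. Of the 13 AGC genes, 9 lie on chromosome 13 between positions 21222586 and 23431484, in the region of the histone genes. Of the 9 CGC genes, 5 lie on the X chromosome between 136367721 and 136567936, among 7 of the 11 TGC genes, which span 136357602 to 136590436. The genes are 72 or 73 bases long, so levels were compared between anticodons without a correction for length. The isoacceptors of tRNA-Ala are alike over much of their length, and the sources used here do not give how a read that matched several of them was counted. Of the 54 tsRNA-Ala values, 2 were whole multiples of the value of 1 read within 0.02 of a read.

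The deposited levels are in RPM, read numbers scaled to the total of the library, with no read counts. Depth was inferred by taking the most frequent value above 0 in a library as 1 read. It lay between 1934330 and 25488322 reads per library. Each tsRNA-Ala value rested on 121 to 16579 reads, which corresponds to a counting error of 0.777% to 9.10%, far below the spread between mice. miR-122, the hepatocyte miRNA, took 15.3% to 64.4% of miRNA reads per library, and no single marker of endothelial, stromal, biliary, myeloid or erythroid cells took more than 2.28%. The libraries differed in class composition beside every result below. miRNAs averaged 86372 RPM in HCD and 27596 RPM in LCD livers by PANDORA-seq, and cytosolic tRNA fragments averaged 14745 RPM in HCD and 68412 RPM in LCD livers by traditional-seq. Their part in the tsRNA-Ala differences was not tested, and a share of a library cannot separate a change in a fragment from a change in the rest of the RNA. In bulk liver, fewer cells of a type and less RNA per cell also cannot be told apart. The PANDORA-seq library of LCD mouse 2 was the lowest of its group for all members. So were the traditional-seq libraries of LCD mouse 1 and HCD mouse 17. None of these levels was flagged as standing apart from its group. The LCD mouse 2 PANDORA-seq library held 268 RPM of tsRNA-Ala in all, against 672 to 1474 RPM in the other LCD PANDORA-seq libraries, and results that move without it are given both ways.

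The 3 anticodons together made up 0.215% to 3.06% of cytosolic tRNA fragments, and tsRNA-Ala-AGC, which has the most genes, was the rarest of them in 18 of 18 libraries. tsRNA-Ala-CGC and tsRNA-Ala-TGC took turns in the lead in 3 of the 4 groups. In the LCD traditional-seq libraries alone, tsRNA-Ala-CGC led in 5 of 5 libraries and stood several-fold above tsRNA-Ala-TGC. That excess was not seen in HCD livers by the same method, nor in the same LCD livers by PANDORA-seq.

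tsRNA-Ala-AGC, from the inosine-edited tRNA, measured 340, 159, 139 and 283 RPM in HCD mice 15, 16, 17 and 18 by PANDORA-seq, against 201, 66.7, 183, 294 and 168 RPM in LCD mice 1 to 5. By traditional-seq it measured 72.0, 134, 40.7 and 53.3 RPM in the HCD mice, against 62.4, 91.3, 244, 148 and 114 RPM in the LCD mice. The diets overlapped within both methods, and the HCD traditional-seq libraries were the lowest on average.

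tsRNA-Ala-CGC measured 570, 369, 592 and 624 RPM in HCD mice 15, 16, 17 and 18 by PANDORA-seq, against 317, 114, 347, 568 and 244 RPM in LCD mice 1 to 5. By traditional-seq it measured 145, 248, 67.1 and 127 RPM in the HCD mice, against 532, 535.5, 996, 819 and 558 RPM in the LCD mice. The HCD and LCD libraries did not overlap by traditional-seq, with all HCD libraries lower, while the diets overlapped by PANDORA-seq. All cytosolic tRNA fragments together did not overlap by traditional-seq either, at 6202 to 21396 RPM in HCD and 59775 to 77081 RPM in LCD libraries. As a share of them, tsRNA-Ala-CGC averaged 1.01% in HCD and 1.03% in LCD livers. How many other RNAs did not overlap was not counted. With RPM as deposited, 57 of the 349 RNAs tested were lower in HCD livers by the limma test used below. The median difference over all RNAs was -0.53 on the log2 scale.

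tsRNA-Ala-TGC measured 716, 307, 625 and 954 RPM in HCD mice 15, 16, 17 and 18 by PANDORA-seq, against 315.5, 87.3, 382, 612 and 260.4 RPM in LCD mice 1 to 5. By traditional-seq it measured 125.6, 207, 82.1 and 138 RPM in the HCD mice, against 109, 132, 379, 248 and 167 RPM in the LCD mice. The diets overlapped within both methods, and the HCD PANDORA-seq libraries were the highest on average.

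**Figure D1:**
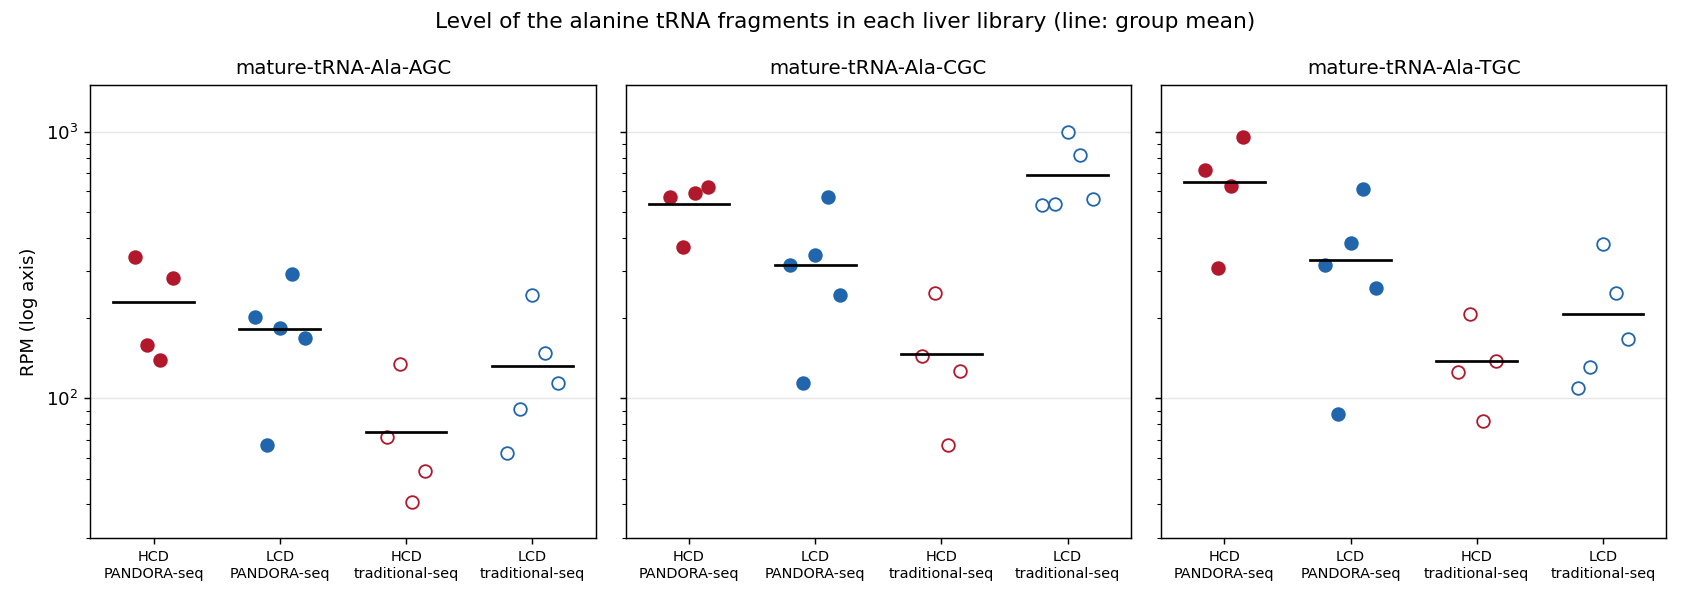
RPM on a log axis of each tsRNA-Ala in the 18 liver libraries, with 1 point per library (filled, PANDORA-seq; open, traditional-seq; red, HCD; blue, LCD) and a line at the group mean. tsRNA-Ala-CGC in LCD traditional-seq libraries (532 to 996 RPM) sits above all HCD traditional-seq libraries (67.1 to 248 RPM), while tsRNA-Ala-AGC and tsRNA-Ala-TGC overlap between diets in both methods. All cytosolic tRNA fragments together also separate by diet in traditional-seq (6202 to 21396 RPM in HCD, 59775 to 77081 RPM in LCD, not drawn).

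Group means put these levels in order. tsRNA-Ala-CGC averaged 539 ± 115 RPM in HCD and 318 ± 166 RPM in LCD livers by PANDORA-seq, and 147 ± 75.3 RPM in HCD and 688 ± 210 RPM in LCD livers by traditional-seq (SD, n = 4 HCD and 5 LCD). The LCD traditional-seq and HCD PANDORA-seq groups, the highest of the 4, differed by less than the SD of the LCD traditional-seq group. tsRNA-Ala-TGC averaged 651 ± 268 RPM in HCD and 332 ± 191 RPM in LCD livers by PANDORA-seq, and 138 ± 51.7 RPM in HCD and 207 ± 110 RPM in LCD livers by traditional-seq. tsRNA-Ala-AGC averaged 230.2 ± 96.9 RPM in HCD and 183 ± 81.2 RPM in LCD livers by PANDORA-seq, and 75.1 ± 41.6 RPM in HCD and 132 ± 69.9 RPM in LCD livers by traditional-seq. For each member, neighbouring groups in the order of means differed by less than 2 times the larger SD.

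The ratio of anticodons within a library does not depend on how the library is scaled and was compared next. It can depend on how reads matching several anticodons were counted, which is not given. tsRNA-Ala-CGC over tsRNA-Ala-TGC was 0.796, 1.20, 0.947 and 0.653 in HCD mice 15, 16, 17 and 18 by PANDORA-seq, against 1.005, 1.31, 0.906, 0.928 and 0.935 in LCD mice 1 to 5. By traditional-seq it was 1.15, 1.20, 0.817 and 0.920 in the HCD mice, against 4.87, 4.07, 2.63, 3.30 and 3.34 in the LCD mice. The ratio thus lay between 0.653 and 1.31 in 13 libraries and between 2.63 and 4.87 in the 5 LCD traditional-seq libraries. On the log2 scale the ratio averaged 0.014 ± 0.26 in HCD and 1.83 ± 0.33 in LCD livers by traditional-seq (SD, n = 4 and 5), a difference of -1.81 (two-sided exact permutation test, p = 0.00794, the smallest it allows; adjusted p = 0.0317 over the 8 ratio tests). In LCD livers it averaged 0.0083 ± 0.22 by PANDORA-seq and 1.83 by traditional-seq, a difference of -1.82 (exact permutation test, adjusted p = 0.0317), and it was lower by PANDORA-seq in 5 of 5 mice. With the mice as pairs, the exact sign-flip test gave an adjusted p of 0.159, and 5 mice cannot pass the threshold in that test.

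The same ratio showed no difference past the threshold elsewhere. Between HCD and LCD livers by PANDORA-seq it differed by -0.20 (exact permutation test, adjusted p = 0.476), and in HCD livers PANDORA-seq and traditional-seq differed by -0.20 (exact permutation test, adjusted p = 0.486). The change of the ratio between the methods within a mouse averaged -0.20 ± 0.37 in 4 HCD mice and -1.82 ± 0.28 in 5 LCD mice (SD). These 2 means differed by 1.61 (exact permutation test over mice, chosen after the data were seen, adjusted p = 0.0159), and every LCD mouse lay below every HCD mouse. Leaving out any 1 of the 9 libraries kept the difference by diet in traditional-seq between -1.92 and -1.70, but with fewer arrangements of the libraries the adjusted p rose to 0.0714 to 0.106. Without any 1 of the LCD traditional-seq libraries, the difference by method in LCD livers stayed between -1.93 and -1.71 with an adjusted p of 0.0635, and without any 1 of the LCD mice the change between methods had an adjusted p of 0.0571.

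tsRNA-Ala-AGC over tsRNA-Ala-TGC, in contrast, was below 1 in every library. Its log2 ratio averaged -1.48 ± 0.57 in HCD and -0.75 ± 0.29 in LCD livers by PANDORA-seq, a difference of -0.73 with overlapping groups (exact permutation test, adjusted p = 0.106). Without the HCD mouse 16 library the difference was -0.91 with an adjusted p of 0.0476. The other 3 comparisons of this ratio gave -0.54 to -0.11 (exact permutation test, adjusted p = 0.159 to 0.486).

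**Figure D2:**
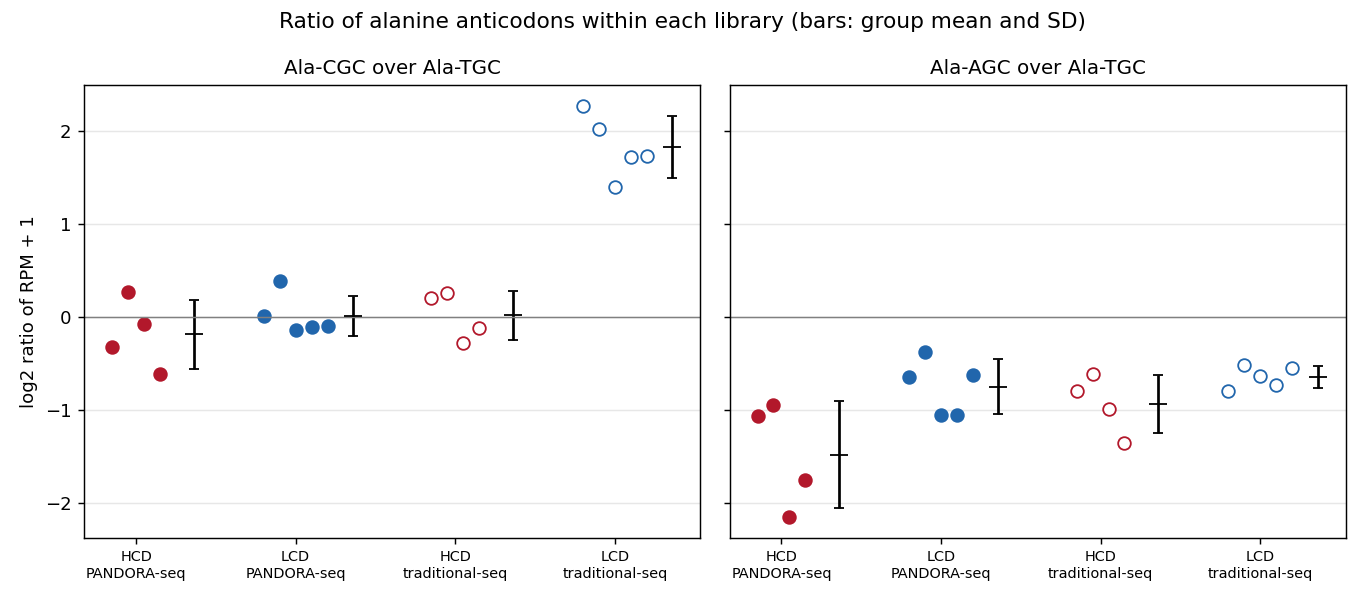
Log2 ratio of RPM + 1 of tsRNA-Ala-CGC (left) and tsRNA-Ala-AGC (right) over tsRNA-Ala-TGC in each library, with group mean and SD as bars (filled, PANDORA-seq; open, traditional-seq). The CGC ratio lies at 1.39 to 2.27 in LCD traditional-seq libraries and between -0.61 and 0.38 in all other libraries, while the AGC ratio is below 0 throughout.

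Seen as a composition, tsRNA-Ala-CGC made up 39.1 ± 5.6% of all tsRNA-Ala in HCD and 38.7 ± 2.3% in LCD livers by PANDORA-seq, and 39.9 ± 3.2% in HCD and 68.3 ± 5.2% in LCD livers by traditional-seq (SD, n = 4 and 5). It ranked 15 to 25 among the 51 cytosolic tRNA entries in HCD and 26 to 33 in LCD livers by PANDORA-seq, counting from the most abundant, and 11 to 18 in HCD and 6 to 9 in LCD livers by traditional-seq. The LCD livers thus held both the lowest and the highest places of tsRNA-Ala-CGC, by PANDORA-seq and by traditional-seq.

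Whether the diet altered each tsRNA-Ala by PANDORA-seq was tested with limma on log2(RPM + 1) after TMM scaling, with Benjamini-Hochberg adjustment over all RNAs tested. None of the 3 passed an adjusted p of 0.05, and 0 of the 3 had an unadjusted p under 0.05. Of all RNAs tested, 23.4% passed in either direction. The difference of HCD minus LCD was 0.94 ± 0.50 for tsRNA-Ala-TGC (SE, adjusted p = 0.196), 0.75 ± 0.44 for tsRNA-Ala-CGC (adjusted p = 0.244) and 0.22 ± 0.42 for tsRNA-Ala-AGC (adjusted p = 0.718). These differences stood 4th, 6th and 17th from the highest of the 51 cytosolic tRNA entries, of which the 48 others had a median of -0.52, with 3 higher and 17 lower in HCD livers. Without the low library of LCD mouse 2 they were 0.56, 0.45 and -0.077, so that the direction of tsRNA-Ala-AGC turned.

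The share of tsRNA-Ala in all cytosolic tRNA fragments gave another view of the same libraries. It was 1.07%, 0.821%, 1.32% and 1.40% in HCD mice 15, 16, 17 and 18 by PANDORA-seq, against 0.469%, 0.215%, 0.420%, 0.523% and 0.330% in LCD mice 1 to 5. The diets did not overlap on this scale. It holds tsRNA-Glu-CTC, the leading hepatic tsRNA, which took 42.9 ± 7.9% of cytosolic tRNA fragments in HCD and 64.02 ± 8.2% in LCD livers (SD, n = 4 and 5). With tsRNA-Glu-CTC left out of the total, tsRNA-Ala made up 1.36% to 2.57% in HCD and 0.446% to 1.88% in LCD livers, and the diets overlapped. Scaling by cytosolic tRNA fragments raised all 3 members in HCD livers past the threshold (1.06, 1.60 and 1.79 for AGC, CGC and TGC, limma adjusted p = 0.0355, 0.00374 and 0.00389), beside 34.8% of all RNAs that were higher on that scale and a median over all RNAs of 0.61. Scaling by miRNA reads turned the sign of all 3 (-1.31, -0.79 and -0.59, none past the threshold), with a median over all RNAs of -1.27.

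**Figure D3:**
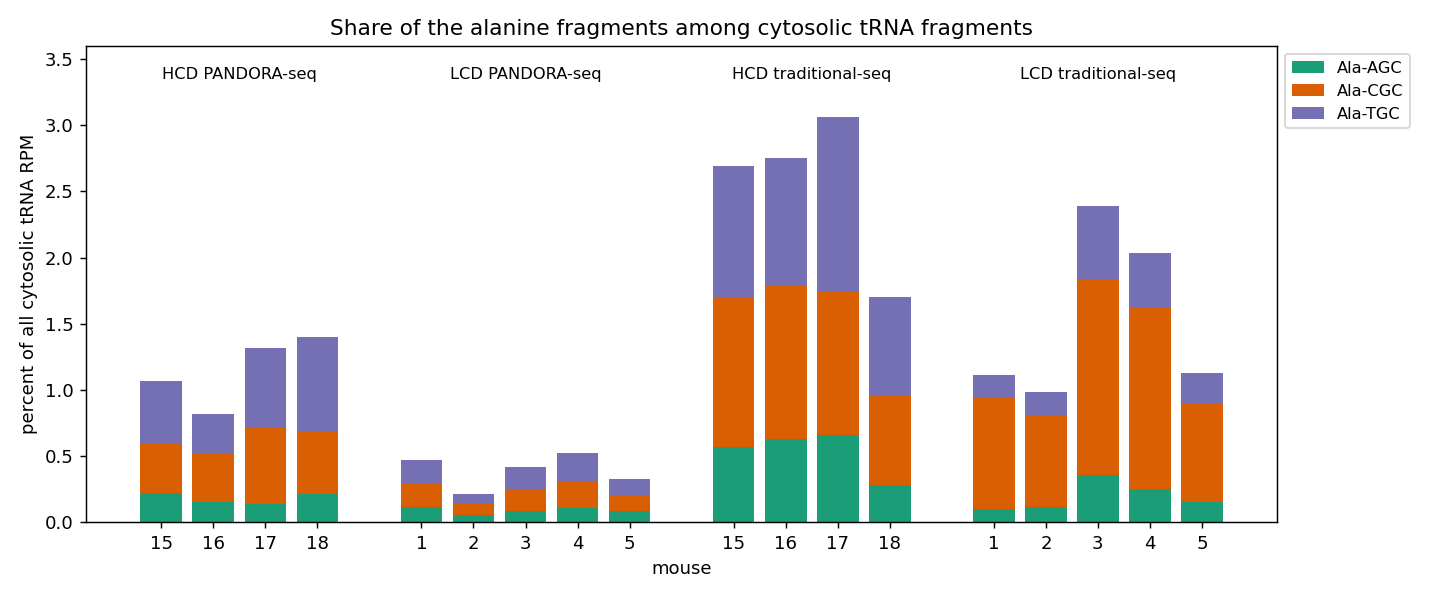
Percent of all cytosolic tRNA RPM taken by each tsRNA-Ala (stacked, 1 bar per library, labelled by mouse). The 3 together take 0.821% to 1.40% in HCD and 0.215% to 0.523% in LCD PANDORA-seq libraries, and the tsRNA-Ala-CGC part is the widest in every LCD traditional-seq library.

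By traditional-seq, the diet comparison was again made for each member by itself, and it tested no difference between members. tsRNA-Ala-CGC was 3.20-fold lower in HCD than in LCD livers, with a log2 difference of -1.68 ± 0.50 (limma after TMM scaling, adjusted p = 0.0474). It was the only member of the 3 to pass with this scaling. The ratio of tsRNA-Ala-CGC to tsRNA-Ala-AGC was not tested. Lower RNAs made up 6.30% of all RNAs tested. Of the 46 other cytosolic tRNA entries tested, 8 were lower and 7 higher. The lower ones included tsRNA-Gly-TCC, the entry most like tsRNA-Ala-CGC across the libraries, tsRNA-Gly-CCC and tsRNA-Gly-GCC. tsRNA-Ala-AGC differed by -0.16 ± 0.57 (adjusted p = 0.937) and tsRNA-Ala-TGC by 0.13 ± 0.55 (adjusted p = 0.949), and the sign of tsRNA-Ala-TGC turned with the RPM as deposited (-0.51) and with miRNA scaling (-0.55). Among the 49 cytosolic tRNA entries tested, tsRNA-Ala-CGC stood 45th from the highest, tsRNA-Ala-AGC 25th and tsRNA-Ala-TGC 21st. The call for tsRNA-Ala-CGC was lost without LCD mouse 1 (-1.79, adjusted p = 0.0730), LCD mouse 4 (-1.57, adjusted p = 0.0549), HCD mouse 17 (-1.56, adjusted p = 0.0581) or HCD mouse 18 (-1.65, adjusted p = 0.0627). Per cytosolic tRNA fragment, 270 of all 349 RNAs tested were higher in HCD livers, with a median over all RNAs of 1.55. On that scale tsRNA-Ala-CGC was at 0.023 (limma adjusted p = 0.951). tsRNA-Ala-AGC and tsRNA-Ala-TGC passed as higher, like most RNAs, at 1.53 and 1.83 (adjusted p = 0.00567 and 0.00147).

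Levels of tsRNA-Ala by PANDORA-seq and by traditional-seq were compared within each diet on the RPM as deposited. RPM is a share of the library and cannot show whether the enzymes raised the yield. In HCD livers all 3 were higher by PANDORA-seq than by traditional-seq, where 18.3% of all RNAs tested were higher. tsRNA-Ala-TGC was higher by 2.19 ± 0.50 on the log2 scale (SE, limma, adjusted p = 0.000179), tsRNA-Ala-CGC by 1.99 ± 0.50 (adjusted p = 0.000535) and tsRNA-Ala-AGC by 1.65 ± 0.53 (adjusted p = 0.00527). These were moderate among tRNA fragments, at the 30th, 32nd and 36th place of 51, against a median of 2.86 over the 48 others, of which 36 were higher. The direction turned per cytosolic tRNA fragment, to -0.97, -1.18 and -1.50 for TGC, CGC and AGC, and 2 of the 3 passed as lower. On that scale 272 of the 312 RNAs tested were lower, with a median of -3.95 over all RNAs.

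In LCD livers the members split. tsRNA-Ala-CGC fell by PANDORA-seq relative to traditional-seq, by -1.24 ± 0.38 on the log2 scale (SE, limma, adjusted p = 0.00566), where 70.5% of all RNAs tested were lower. Of the 48 other cytosolic tRNA entries, 43 were higher by PANDORA-seq with a median over the 48 of 2.66, and 2 were lower, tsRNA-Gly-CCC and tsRNA-Gly-GCC. tsRNA-Ala-CGC stood 50th of 51. Its sign turned with TMM scaling (0.16, not past the threshold) and with miRNA scaling (3.41), and held per cytosolic tRNA fragment (-2.75). tsRNA-Ala-AGC differed by 0.47 ± 0.42 (limma, adjusted p = 0.295) and tsRNA-Ala-TGC by 0.58 ± 0.47 (adjusted p = 0.247). Their calls and signs depended on the scaling. AGC and TGC were higher past the threshold with TMM (1.86 and 1.97, limma adjusted p = 0.00506 and 0.00734) and with miRNA scaling (5.08 and 5.20). Of the 325 RNAs tested, 89 were higher with TMM and 135 with miRNA scaling. Per cytosolic tRNA fragment, AGC and TGC were lower past the threshold (-1.03 and -0.93, limma adjusted p = 0.0175 and 0.0444). On that scale 250 of the 325 RNAs were lower, with a median of -3.61 over all RNAs. Without the low PANDORA-seq library of LCD mouse 2, tsRNA-Ala-TGC was higher by 0.99 (adjusted p = 0.0217).

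Within single mice, log2(RPM + 1) of tsRNA-Ala-CGC by PANDORA-seq minus traditional-seq was 1.97, 0.57, 3.12 and 2.29 in HCD mice 15, 16, 17 and 18, against -0.75, -2.22, -1.52, -0.53 and -1.19 in LCD mice 1 to 5. With RPM as deposited, all HCD mice were above 0 and all LCD mice below it. For tsRNA-Ala-TGC the same quantity was 2.50, 0.57, 2.91 and 2.78 in the HCD mice, against 1.52, -0.59, 0.013, 1.30 and 0.64 in the LCD mice. The diets overlapped in mouse 16, the HCD mouse with the smallest gain for each member. In LCD livers the sign of tsRNA-Ala-CGC by method turned with TMM and with miRNA scaling. How many other RNAs separated the diets within mice was not counted.

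**Figure D4:**
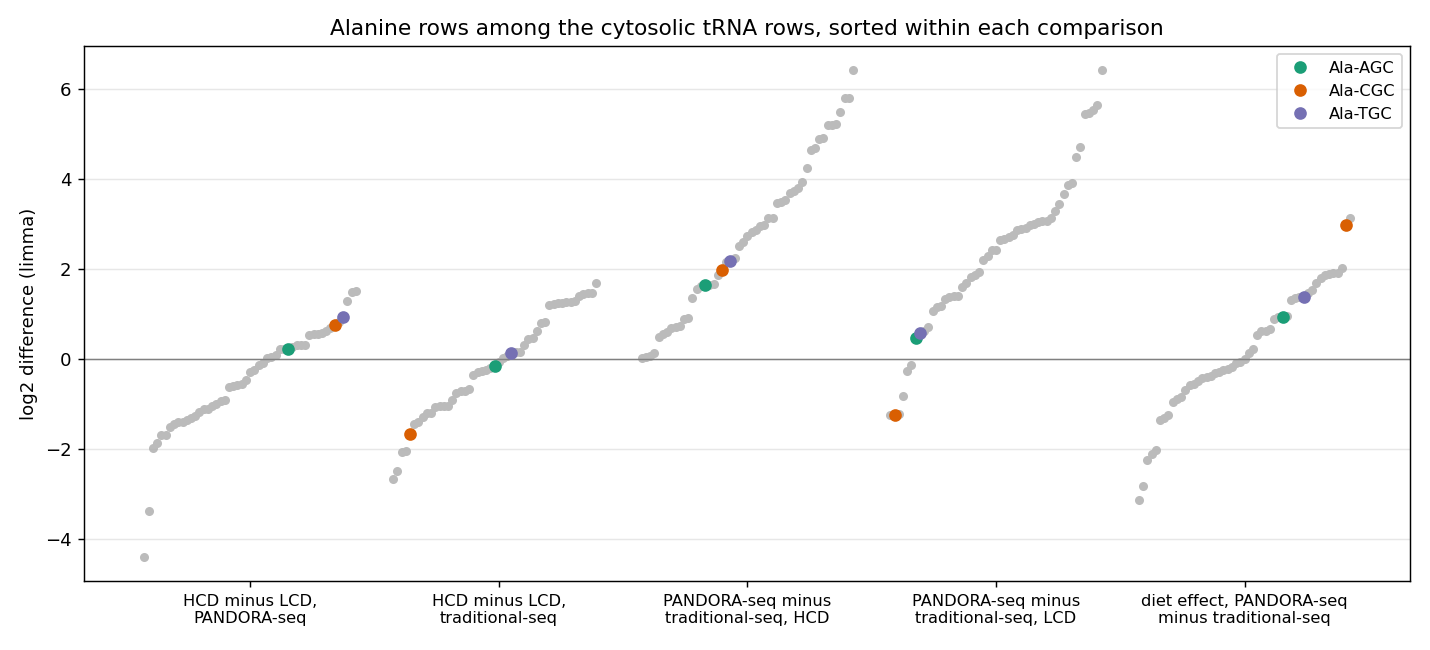
Log2 difference (limma) of the cytosolic tRNA entries in 5 comparisons, sorted from low to high within each (grey), with the tsRNA-Ala entries coloured. Comparisons by diet and the last one use TMM-scaled RPM and those by method the RPM as deposited. tsRNA-Ala-CGC is near the bottom by diet in traditional-seq (-1.68) and by method in LCD livers (-1.24, turned to 0.16 with TMM), and at 2.99 near the top in the last.

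How far the diet effect depended on the sequencing method was then tested. For tsRNA-Ala-CGC, HCD minus LCD was higher by PANDORA-seq than by traditional-seq by 2.99 ± 0.76 on the log2 scale (SE, limma interaction term on TMM-scaled RPM of all 18 libraries, adjusted p = 0.0240). It was the 2nd of 51 cytosolic tRNA entries from the highest, and 2.74% of all RNAs tested were higher. tsRNA-Ala-AGC gave 0.94 ± 0.78 (adjusted p = 0.516) and tsRNA-Ala-TGC 1.38 ± 0.86 (adjusted p = 0.361). The value for tsRNA-Ala-CGC was positive under the scalings compared, namely 3.23 with RPM as deposited, 1.57 per cytosolic tRNA fragment (adjusted p = 0.0170), 1.54 per miRNA read (adjusted p = 0.235) and 1.30 per cytosolic tRNA fragment with tsRNA-Glu-CTC left out of the scale (adjusted p = 0.0758). The last 2 did not pass the threshold. With the mouse as a block its adjusted p was 0.00152. The call was lost without any 1 of 5 traditional-seq libraries, those of LCD mice 2 (2.97, adjusted p = 0.110), 4 (2.56, adjusted p = 0.213) and 5 (2.96, adjusted p = 0.116) and HCD mice 15 (2.79, adjusted p = 0.155) and 18 (2.56, adjusted p = 0.270).

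**Figure D5:**
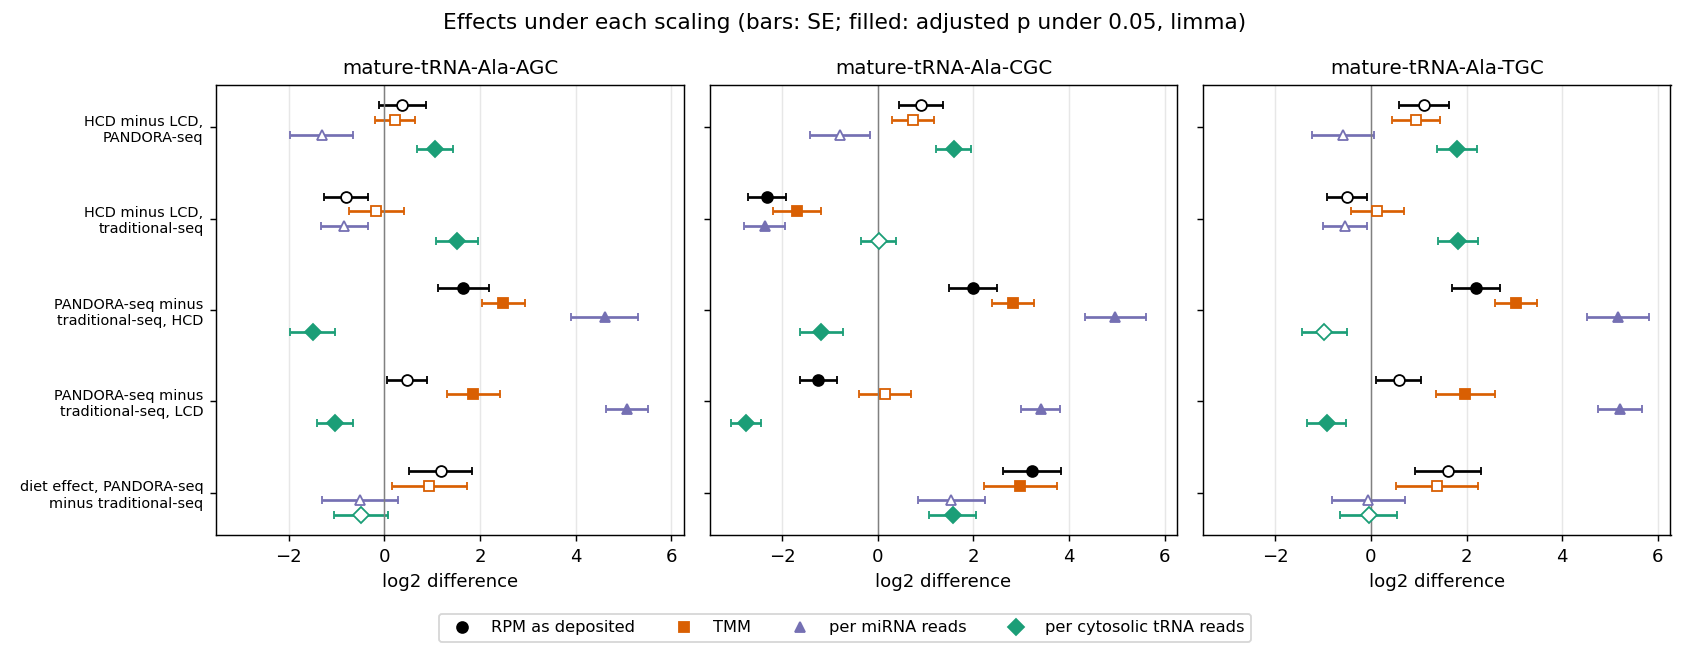
Log2 difference ± SE (limma) of each tsRNA-Ala in 5 comparisons under 4 scalings of the libraries, filled where the adjusted p was under 0.05. tsRNA-Ala-CGC is the member whose diet effect differs between methods past the threshold under 3 of the 4 scalings drawn (3.23 deposited, 2.99 TMM, 1.57 per cytosolic tRNA fragment, which becomes 1.30 and does not pass with tsRNA-Glu-CTC left out), while the effects by method change sign between scalings for all members.

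Related tRNAs gave some context. tsRNA-Cys-GCA, whose parent tRNA also begins with a run of guanosines, averaged 313 ± 219 RPM in HCD and 546 ± 90.9 RPM in LCD livers by PANDORA-seq (SD, n = 4 and 5) and was lower in HCD livers, with a log2 difference of -1.26 ± 0.38 (SE, limma, adjusted p = 0.0327). Its difference from tsRNA-Ala was not tested. By traditional-seq tsRNA-Cys-GCA differed by -0.70 ± 0.42 (adjusted p = 0.359). The mitochondrial alanine tRNA, encoded by the mitochondrial genome with a TGC anticodon, averaged 11.5 RPM in HCD and 23.7 RPM in LCD livers by PANDORA-seq, and 21.9 RPM in HCD and 115 RPM in LCD livers by traditional-seq. Its fragments measured 15.5, 43.3, 9.17 and 19.5 RPM in HCD mice 15, 16, 17 and 18 by traditional-seq, against 80.6, 120, 130, 92.8 and 150.5 RPM in LCD mice 1 to 5, without overlap. All mitochondrial tRNA fragments together did not overlap there either, at 1623 to 5521 RPM in HCD and 11145 to 21323 RPM in LCD libraries. The fragments of mitochondrial tRNA-Ala were lower in HCD livers by traditional-seq, with a log2 difference of -1.89 ± 0.43 (SE, limma, adjusted p = 0.0152), beside -1.68 for tsRNA-Ala-CGC and 0.13 for the cytosolic tsRNA-Ala-TGC. By PANDORA-seq the difference of the mitochondrial tRNA-Ala fragments was -1.02 ± 0.44 (adjusted p = 0.113). In LCD livers they were lower by PANDORA-seq, with a log2 difference of -2.36 ± 0.38 (adjusted p = 1.71e-05), and in HCD livers the methods differed by -0.71 ± 0.59 (adjusted p = 0.272).

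tsRNA-Ala-AGC was set beside the other 7 cytosolic tRNAs whose anticodon begins with an adenosine that is edited to inosine (Arg-ACG, Ile-AAT, Leu-AAG, Pro-AGG, Ser-AGA, Thr-AGT and Val-AAC). Between methods, 7 of these 7 were higher by PANDORA-seq in LCD livers, with a median of 2.28, and 5 of 7 in HCD livers, with a median of 3.14. Of all RNAs tested, 21.8% were higher in LCD and 18.3% in HCD livers, and of the 48 cytosolic tRNA entries other than tsRNA-Ala, which include these 7, 43 and 36 were higher. tsRNA-Ala-AGC was at 0.47 and 1.65 in these comparisons. By diet, tsRNA-Ala-AGC did not pass in either method. Of the other 7, tsRNA-Ile-AAT and tsRNA-Val-AAC were lower in HCD livers by PANDORA-seq (-1.39 and -1.51, limma adjusted p = 0.0455 and 0.0137), where 15.6% of all RNAs were lower, and tsRNA-Arg-ACG and tsRNA-Thr-AGT were higher by traditional-seq (1.25 and 1.45, adjusted p = 0.0387 and 0.0204), where 3.44% of all RNAs were higher.

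Across the 18 libraries, tsRNA-Ala-AGC and tsRNA-Ala-TGC were each other's nearest neighbour among cytosolic tRNA entries. The root mean square difference of their centred log2(RPM + 1) was 0.44, ahead of tsRNA-Arg-CCT at 0.68 from tsRNA-Ala-AGC and 0.77 from tsRNA-Ala-TGC. tsRNA-Ala-CGC was nearest to tsRNA-Gly-TCC, at 0.71, and stood at 0.76 from tsRNA-Ala-AGC and 0.88 from tsRNA-Ala-TGC. These distances describe libraries that share mice, depth and composition. They can also depend on how reads matching several anticodons were counted, which is not given.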

How the data were processed

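Small RNA of 9 mouse livers was measured by PANDORA-seq and traditional-seq in 18 libraries. The authors assigned the reads to mm10 with SPORTS1.1, allowing 1 mismatch, and deposited RPM values, which are relative to the reads of the library. Empty cells were read as 0. Diet and method were taken from the labels, and the 2 libraries of a mouse from the mouse number in the sample titles.

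The deposited RPM are not counts. Only 67.6% to 81.5% of low values (under 3 RPM) in a library came out as whole reads, too few to recover counts, so no count test was run. RNAs reaching 1 RPM in 4 or more libraries (5 for the methods in LCD livers) were compared by limma (version 3.58.1, R 4.3.3, trend) on log2(RPM + 1), at an adjusted p of 0.05. Comparisons by diet used TMM scaling (own code, trimming 30% by fold and 5% by level), in place of the likelihood ratio test on counts that the authors applied. Fold changes on this scale understate those of rare RNAs. Ratios of anticodons were compared by exact permutation tests. Other steps used Python 3.11.15, numpy 2.4.6, pandas 2.3.3 and matplotlib 3.10.9. The limma fits by diet and by method were tested on simulated data, and TMM on a library rescaled by known factors. The permutation tests were checked on fixed sets of numbers. The interaction fit and the fits with the mouse as a block were not tested on simulated data.

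tsRNA-Ala, tsRNA-Cys-GCA, mitochondrial tRNA-Ala and the tRNAs with an edited adenosine were named by fixed lists, and the most alike entries by root mean square difference. The members and lists were chosen with earlier results of these data known. The 2 libraries of a mouse share an animal, but the main limma tests and the permutation tests by method treated them as separate. Mice entered as blocks or pairs only where stated. The deviations of these 2 libraries from the group means over 308 RNAs correlated at 0.0803 to 0.425, over 0.1 in 8 of 9 mice. Within a diet, the PANDORA-seq library correlated best with the traditional-seq library of its own mouse in 6 of 9 mice. It did not in LCD mice 1, 3 and 4. The p-values measure the spread between the libraries or mice of 1 experiment. Sequences of the tRNAs were not used here.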

Additional observations from a re-analysis of the deposited data

Results flagged for a closer look

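The log2 ratio of tsRNA-Ala-CGC over tsRNA-Ala-TGC in the LCD mouse 2 PANDORA-seq library was 0.38, apart from the other 4 LCD PANDORA-seq libraries by 0.715 of the range of the group. It was the only such library among 20 groups of values looked at, and chance gives about 1 in 20. The same library held the lowest level of each tsRNA-Ala in its group.

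Effects of diet differed between the methods, with the difference itself tested. The diet effect on tsRNA-Ala-CGC was 2.99 higher on the log2 scale by PANDORA-seq than by traditional-seq (limma interaction term, adjusted p = 0.0240, and 0.00982 to 0.270 when 1 library was left out). The change of the log2 ratio of tsRNA-Ala-CGC over tsRNA-Ala-TGC between methods was 1.61 higher in HCD than in LCD mice (exact permutation test, adjusted p = 0.0159, with no overlap between 4 HCD and 5 LCD mice).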

How the results depend on the processing

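The ratio of tsRNA-Ala-CGC to tsRNA-Ala-TGC kept its calls with no pseudocount and with 5 RPM, while the levels depended on the scaling, and the cause was not tested. Of 389 alternative values of tsRNA-Ala levels and ratios, 311 kept their direction and side of the threshold. By diet in PANDORA-seq, AGC, CGC and TGC were at -1.31, -0.79 and -0.59 with miRNA scaling and 1.06, 1.60 and 1.79 with cytosolic tRNA scaling. By diet in traditional-seq they were at 1.53, 0.023 and 1.83 with cytosolic tRNA scaling and 1.11, -0.39 and 1.42 with tsRNA-Glu-CTC left out of that scale (chosen after the data were seen). TGC was at -0.51 with RPM as deposited, -0.55 with miRNA scaling and -0.10 with all libraries in the fit. With no filter on low values, which tests more RNAs, CGC stayed at -1.68 (limma adjusted p = 0.172) and its difference of the diet effect at 2.99 (adjusted p = 0.107). By method in LCD livers, AGC, CGC and TGC were at 1.86, 0.16 and 1.97 with TMM, 5.08, 3.41 and 5.20 with miRNA scaling, and AGC and TGC at -1.03 and -0.93 with cytosolic tRNA scaling. In HCD livers the last gave -1.50, -1.18 and -0.97. With tsRNA-Glu-CTC left out of that scale, AGC and TGC were at -0.27 and -0.17 in LCD livers, the 3 at -1.01, -0.69 and -0.48 in HCD livers, and the difference of the diet effect at -0.74, 1.30 and -0.31. The difference of the diet effect was -0.51, 1.54 and -0.055 with miRNA scaling, and for AGC and TGC -0.48 and -0.049 with cytosolic tRNA scaling. With the mouse as a block, the CGC/TGC difference by method in LCD livers stayed at -1.82 (exact sign-flip test, adjusted p = 0.159). The block raised RNAs called for the difference of the diet effect to 55, against 20 of 365 without it, and changed no other call.

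Leaving out 1 library at a time gave -0.077 to 0.43 for AGC by diet in PANDORA-seq, and -0.61 to 0.090, -2.10 to -1.54 and -0.21 to 0.38 for AGC, CGC and TGC in traditional-seq. It gave 0.29 to 0.99 for TGC by method in LCD livers and 2.56 to 3.37 for the difference of the diet effect on CGC. For ratios it gave -1.92 to -1.70 (CGC/TGC by diet in traditional-seq), -1.93 to -1.71 (by method in LCD livers), 1.48 to 1.72 (between methods and diets) and -0.91 to -0.50 (AGC/TGC by diet in PANDORA-seq).

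RNAs called by diet in PANDORA-seq numbered 57 of 244 (33.3% higher), 113 with miRNA scaling (0% higher), 94 with cytosolic tRNA scaling (90.4% higher), 13 with no filter and 23 to 56 without 1 library. In traditional-seq they numbered 34 of 349 (35.3% higher), 60 as deposited (5% higher), 52 with miRNA scaling (5.77% higher), 276 with cytosolic tRNA scaling (97.8% higher), 214 without tsRNA-Glu-CTC in that scale, 10 with no filter and 18 to 56 without 1 library. For the difference they numbered 20 (50% higher), 53 as deposited (81.1% higher), 13 with miRNA scaling (0% higher), 151 with cytosolic tRNA scaling (1.32% higher), 141 without tsRNA-Glu-CTC in that scale (0.709% higher), 9 with no filter and 3 to 36 without 1 library. By method in LCD livers 300 of 325 were called (23.7% higher) and 192 with miRNA scaling (70.3% higher), and in HCD livers 249 of 312 (22.9% higher), with 60% higher with miRNA scaling and 4.90% with cytosolic tRNA scaling. The cytosolic tsRNA-Ala values each rest on at least 121 reads. Other RNAs counted here, and the mitochondrial tRNA-Ala fragments, can rest on far fewer, since 1 read was worth up to 0.517 RPM.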
